A study of Homo sapiens with 12 samples.

Results

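GAPDH, ACTB, TBP, HPRT1, PPIA, YWHAZ, GUSB and TFRC are genes that laboratories use as internal standards in quantitative reverse transcription PCR (RT-qPCR). These 8 genes were taken by symbol from the gene tables of 12 mRNA sequencing libraries, in which 60660 genes were listed, and all 8 were among the 18720 genes that passed the low-count filter over the 4 groups. The study normalised its mRNA measurements to GAPDH, so the comparisons below ask how steady GAPDH and 7 other standards were between libraries, between mimics and between cell lines. LNCaP and 22Rv1 are human prostate cancer (PCa) lines, and each received either a negative control mimic (NC-mimic, labelled control) or a synthetic mimic of the PIWI-interacting RNA piR-4447944 (labelled piR-hsa-4447944 overexpression), with 3 libraries in each of the 4 groups. All 4 groups were under androgen deprivation, in medium whose serum (10%) had been charcoal-stripped (CS-FBS), and mRNA was sequenced from total RNA. The labels do not say whether the 3 libraries of a group came from separate cultures, so the p-values measure the spread between libraries, which may be technical.

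A reference gene works as a yardstick: the signal of a gene of interest is divided by that of the standard, which corrects for unequal RNA input only as far as the standard itself holds one level in every sample. The 8 genes belong to unrelated processes. GAPDH is an enzyme of glycolysis, ACTB is cytoplasmic beta-actin, TBP binds the TATA box during transcription initiation, and HPRT1 salvages purines. PPIA is the peptidyl-prolyl isomerase cyclophilin A, YWHAZ is the zeta member of the 14-3-3 adaptor proteins, GUSB is the lysosomal beta-glucuronidase, and TFRC is the transferrin receptor that carries iron into the cell.

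On the hg38 build with GENCODE v44 gene models, GAPDH lies on the plus strand of chromosome 12 from 6534512 to 6538374. ACTB (chromosome 7, 5526409 to 5563902, minus strand), PPIA (chromosome 7, 44796680 to 44824564, plus strand) and GUSB (chromosome 7, 65960684 to 65982215, minus strand) share a chromosome. TBP spans 170554302 to 170572870 on chromosome 6, HPRT1 134460165 to 134520513 on chromosome X and TFRC 196012511 to 196082153 on chromosome 3. The 250 bases before the canonical transcript start held the letters TATAAA, on either strand, in 4 of the 8 genes (50%), against 9.35% of 20032 protein-coding promoters of that length. Other letters were read in the same stretch: ACGTG was in 3 of the 8 genes (37.5%, against 20.5%) and CACGTG in 0 (against 7.87%). The TATAAA windows are shown because these 4 promoters share letters that the choice of genes did not use. TBP, a member itself, also binds such a box. They are written 5′ to 3′ on the gene's strand, with the motif in capitals.

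GAPDH, chr12:6534476-6534505, plus strand: gcccccggtttcTATAAAttgagcccgcag
ACTB, chr7:5530613-5530642, minus strand: gcggcggcgcccTATAAAacccagcggcgc
PPIA, chr7:44796638-44796667, plus strand: ggccgaacgtggTATAAAaggggcgggagg
TFRC, chr3:196082106-196082135, minus strand: gcggggccaggcTATAAAccgccggttagg

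The first letter of the motif stood 29 bases before the start in GAPDH and ACTB, 31 in PPIA and 33 in TFRC. A match of letters is a description, and factor binding was not measured.

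The libraries held 12161091 to 22179601 expected counts. Reads of the 8 genes made up 0.547% to 0.577% of the counts in the LNCaP libraries and 0.780% to 0.922% in 5 of the 22Rv1 libraries, but 1.74% in 22Rv1 piR-4447944 replicate 3. That library also had 2.23% of its counts in mitochondrially encoded genes, against 4.24% to 5.37% in the other 11. Replicate 3 stood apart in both 22Rv1 groups: a chi-square per gene between replicates was 7.36 and 8.65 for replicates 1 and 2, and 39.4 to 115 for pairs that held replicate 3, while LNCaP pairs gave 3.48 to 15.9. The main results for GAPDH are therefore given with and without 22Rv1 piR-4447944 replicate 3. Many results for other genes and for lists are given with all libraries only. Of the markers checked, 8 luminal prostate genes summed to 4455 to 4813 TPM (reads per transcript length, rescaled to the same total in each library) in LNCaP and 1828 to 2452 TPM in 22Rv1. Sums were 25.8 to 43.9 TPM in LNCaP and 7.56 to 27.5 TPM in 22Rv1 for 4 fibroblast markers, with COL1A2 at 0 in LNCaP. For 3 leukocyte markers they were 1.5 to 6.02 TPM and 0 to 4.38 TPM, and for 3 endothelial markers 0.79 to 1.89 TPM, nearly all from VWF, and 0 to 0.08 TPM, with CDH5 at 0 in all 12 libraries.

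In LNCaP cells none of the 8 genes passed the test with the mimic, and by CPM the libraries of GAPDH and of ACTB each lay within a 1.07-fold range. Levels compared between libraries are CPM, that is counts divided by a library size corrected with TMM factors, which equalise the bulk of the genes. GAPDH was at 2114, 1985 and 2023 CPM with NC-mimic and at 2109, 2124 and 2052 CPM with piR-4447944, and the groups overlapped. The group means were 2041 ± 66.1 and 2095 ± 37.9 CPM (SD, n = 3). The fitted log2 fold change was 0.04 (SE 0.05, 95% interval -0.08 to 0.15). ACTB gave 1455, 1432 and 1429 CPM against 1513, 1439.7 and 1439.8 CPM, a log2 fold change of 0.02 (SE 0.05). The lowest piR-4447944 value of ACTB lay between the NC-mimic values, so these groups overlapped as well.

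TBP and HPRT1, the members with the fewest counts, had the largest SE in LNCaP, while that of GUSB was under that of TFRC. TBP, with 188 to 415 expected counts per library over the series, measured 12.6, 13.6 and 11.4 CPM with NC-mimic and 14.3, 14.7 and 12.9 CPM with the mimic, a log2 difference of 0.15 (SE 0.12, 95% interval -0.12 to 0.42). The interval of TBP reached higher than that of any other member, and its groups overlapped. HPRT1 measured 29.9, 32 and 25.5 CPM and then 33.6, 26.7 and 27.2 CPM, with a fitted log2 difference of -0.01 (SE 0.12). GUSB measured 60.0, 63.0 and 58.5 CPM and then 58.0, 61.0 and 52.4 CPM, a log2 difference of -0.09 (SE 0.08). Neither gene separated the groups.

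PPIA stood at 935, 976 and 950.3 CPM and at 949, 934 and 909 CPM, a log2 fold change of -0.04 (SE 0.05). YWHAZ stood at 625, 638 and 539 CPM and at 623, 605 and 568 CPM (log2 fold change -0.01, SE 0.07). TFRC stood at 518, 509 and 435 CPM and at 514, 478 and 407 CPM (log2 fold change -0.06, SE 0.09). In YWHAZ and TFRC replicate 3 was the lowest library of both groups, and the spread within a group exceeded the difference between them. In the mimic comparisons a gene was called when its unadjusted edgeR p was under 0.05 and it moved by more than 0.2 on the log2 scale in either direction. By this rule 0 of the 8 members were called in LNCaP, where 2.22% of 16244 tested genes were, and all 8 had an adjusted p of 0.999 (Benjamini-Hochberg over all genes tested). The members' fitted folds ran from 0.943 to 1.11. Groups that did not overlap by CPM were seen for 0 of 8 members and for 7.85% of all tested genes.

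**Figure D1:**
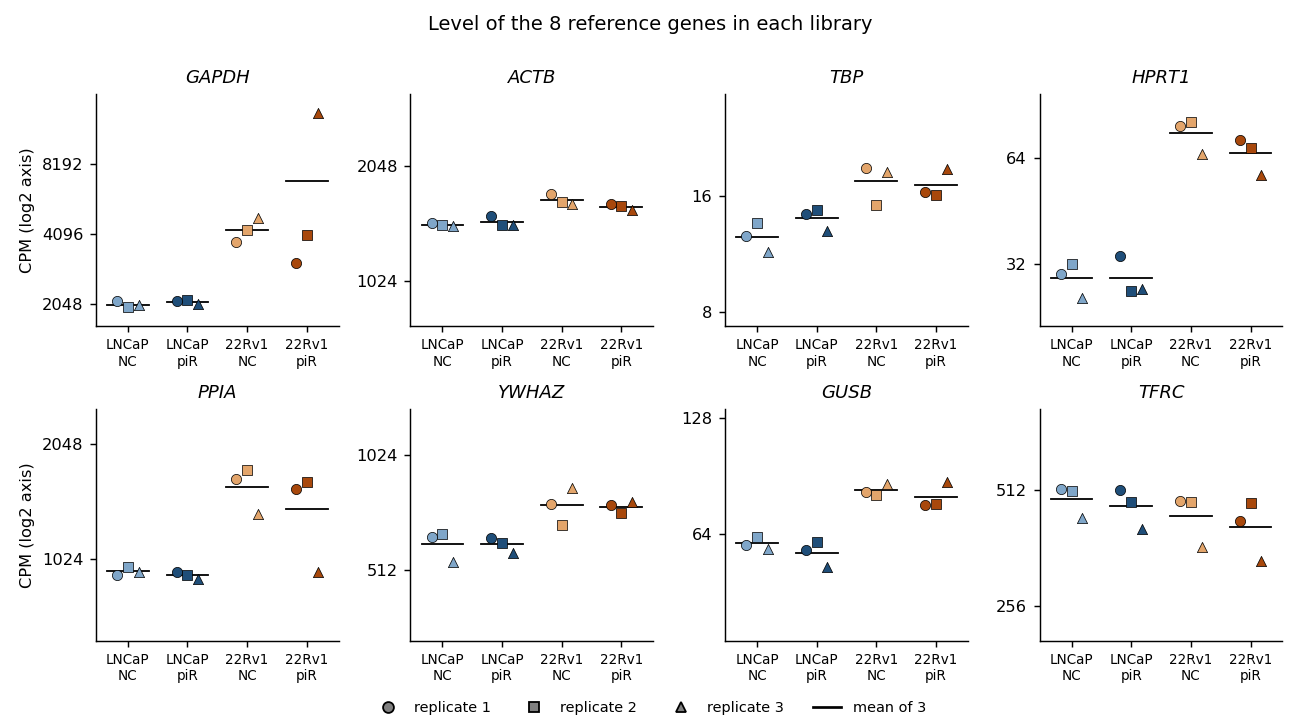
Level of each reference gene in CPM after TMM scaling (log2 axis) in the 3 libraries of each group, with marker shapes for the replicate and a bar for the mean of 3. Most panels are flat within a line, and the GAPDH value of 22Rv1 piR-4447944 replicate 3, 13634 CPM, lies far above the other GAPDH values of 1985 to 4791 CPM.

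ACTB was the member whose result in LNCaP depended most on the unit. Its TPM were 1301, 1285 and 1338 with NC-mimic and 1490, 1400 and 1419 with piR-4447944, so the groups did not overlap on that scale. TPM divides by the effective transcript length that RSEM estimates in each library, and this was 1476, 1483 and 1353 bases for ACTB with NC-mimic against 1335, 1346 and 1321 bases with the mimic. On log2(TPM + 1), limma gave a difference of 0.13 (SE 0.06, unadjusted p = 0.0463, adjusted p = 0.999), which is under the fold threshold.

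In 22Rv1 cells GAPDH was the least steady of the 8 genes, and 1 library set its mean. It measured 3798, 4268 and 4791 CPM with NC-mimic (4286 ± 497 CPM, SD, n = 3). With piR-4447944 the values were 3079, 4045 and 13634 CPM, a mean of 6920 ± 5835 CPM (SD, n = 3). Replicate 3 was thus 3.20-fold over the NC-mimic mean, while replicate 1 was the lowest of all 6 libraries. GAPDH accounted for 0.376%, 0.422% and 0.483% of the counts in the NC-mimic libraries and for 0.315%, 0.407% and 1.36% with the mimic, so the difference was already present without scaling. The fitted log2 fold change was 0.68 (SE 0.51, unadjusted p = 0.227, adjusted p = 0.999, edgeR), a fold of 1.60 with a 95% interval of 0.695 to 3.67. Without piR-4447944 replicate 3 the direction turned, to -0.26 (unadjusted p = 0.104 by edgeR). The interval leaves room for changes in GAPDH between a fall and a more than 3-fold rise, and the p-value does not show that GAPDH was level.

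Over the same libraries ACTB hardly moved. It measured 1726, 1650.1 and 1626.3 CPM with NC-mimic and 1626.1, 1612 and 1570.0 CPM with the mimic, and the fitted log2 fold change was -0.06 (SE 0.11). All 3 mimic libraries were below the lowest NC-mimic library, by a margin that was close to nil for replicate 1. ACTB was the 1 member of 8 whose groups did not overlap in 22Rv1, where the share over all tested genes was 8.78%, and the exact two-sided permutation p of its log2 CPM was 0.1, the smallest that 3 against 3 libraries can give.

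PPIA, HPRT1 and TFRC were lowest in the library in which GAPDH was highest. PPIA measured 1656, 1746 and 1346 CPM with NC-mimic and 1564, 1628 and 952 CPM with the mimic, a log2 fold change of -0.20 (SE 0.23, 95% interval -0.73 to 0.34). Without piR-4447944 replicate 3 its difference in mean log2 CPM was 0.02. HPRT1 measured 79.1, 81.2 and 65.8 CPM and then 72.3, 68.5 and 57.4 CPM (-0.19 on the log2 scale, SE 0.15). In both genes replicate 3 was the lowest library within its group, and the groups overlapped. Relative to the NC-mimic mean, 22Rv1 piR-4447944 replicate 3 deviated on the log2 scale by 1.68 for GAPDH, -0.72 for PPIA, -0.39 for HPRT1 and -0.38 for TFRC. For ACTB, TBP, GUSB and YWHAZ the deviations of that library lay between -0.09 and 0.12.

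TFRC measured 479, 477 and 364 CPM with NC-mimic and 425, 476 and 335 CPM with piR-4447944 (log2 fold change -0.10, SE 0.18). Its difference in mean log2 CPM was 0.04 without piR-4447944 replicate 3. Its replicate 3 library was the lowest in each of the 4 groups of the series. YWHAZ measured 761, 673 and 838 CPM and then 755, 723 and 772 CPM (-0.02, SE 0.13). GUSB measured 82.4, 80.9 and 86.2 CPM and then 76.2, 76.5 and 87.2 CPM (-0.06, SE 0.12). TBP measured 18.9, 15.1 and 18.4 CPM and then 16.4, 16.1 and 18.8 CPM (-0.04, SE 0.19). These 4 genes overlapped between the mimics. The rule called 0 of 8 members in 22Rv1, against 1.48% of 16898 tested genes, and every member again had an adjusted p of 0.999. Over all tested genes 0 had an adjusted p under 0.05 in edgeR with either line, beside 433 (LNCaP) and 250 (22Rv1) with an unadjusted p under 0.05 and 2 and 4 genes by DESeq2 after adjustment.

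The mimic effect was also compared between the lines in a fit of all 12 libraries. The difference in log2 fold change (22Rv1 effect minus LNCaP effect) was 0.65 for GAPDH (SE 0.57, 95% interval -0.60 to 1.91). For the other 7 members it lay between -0.19 and 0.03. None of the 8 was called, against 3.26% of 18720 tested genes.

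**Figure D2:**
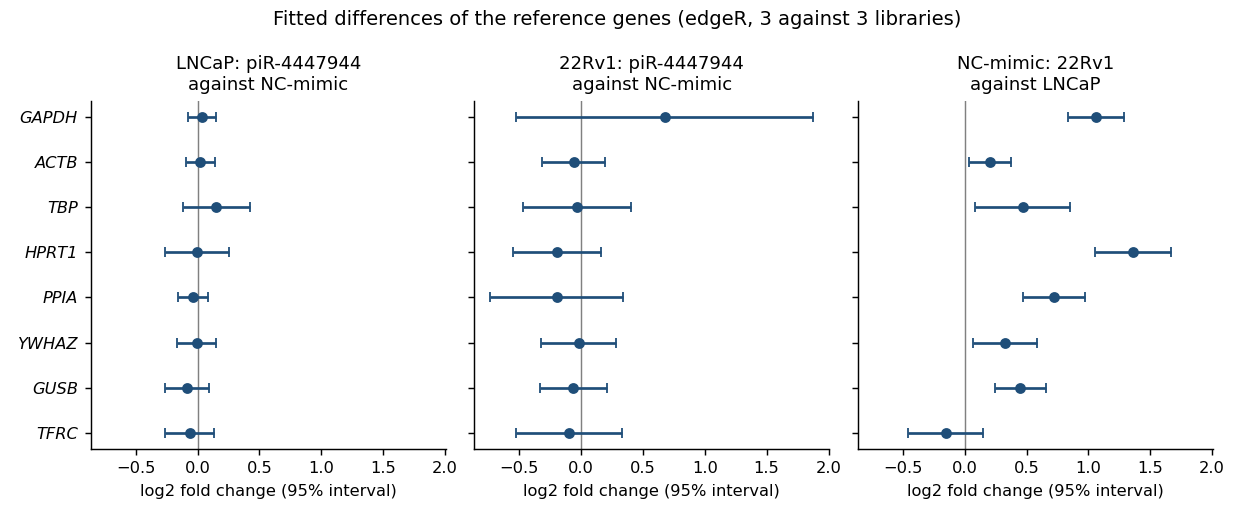
Fitted log2 fold change of each reference gene with its 95% interval (edgeR, 3 against 3 libraries) in the mimic comparison of each line and between the lines with NC-mimic. In the mimic comparisons every interval includes 0 and GAPDH in 22Rv1 has the widest, from -0.53 to 1.88, whereas in the line comparison of NC-mimic libraries 7 of 8 intervals lie above 0.

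GAPDH did not stand alone in the deviating library. A list of 16 other glycolysis genes had a median deviation of 1.80 on the log2 scale in 22Rv1 piR-4447944 replicate 3 relative to the NC-mimic mean, with 14 of 16 genes above that mean and 11 of them more than 2-fold above it. ENO1, which makes phosphoenolpyruvate, measured 777, 999 and 1187 CPM with NC-mimic and 630, 896 and 4330 CPM with the mimic. PGK1, the first ATP-yielding enzyme of the pathway, measured 502, 651 and 987 CPM and then 392, 638 and 3297 CPM. PKM, the pyruvate kinase, measured 801, 926 and 1005 CPM and then 701, 881 and 2266 CPM. In each of these genes, as in GAPDH, piR-4447944 replicate 1 was the lowest and replicate 3 the highest of the 6 libraries. PKM and ENO1 are also the genes that followed GAPDH most closely over these libraries, so their shared order is no separate evidence. The order was not that of the whole list. HK2 (143 CPM) and PFKL (242 CPM) were lowest in NC-mimic replicate 3. PFKM (188 CPM) and LDHB (574 CPM) were lowest in piR-4447944 replicate 3. The largest deviation was that of ALDOA, 2.34, and the lowest that of LDHB, -0.63. In NC-mimic replicate 3 the median deviation of the list was 0.27, with 13 of 16 genes above the mean. As a comparison of mimics, 0 of 16 glycolysis genes were called in either line. The median log2 fold change was 0.03 in LNCaP and 0.61 in 22Rv1, beside medians over all tested genes of -0.00 and -0.01. The 0.61 rested on replicate 3. In 22Rv1 piR-4447944 replicates 1 and 2 the list's median deviations were -0.41 and -0.10, with 1 and 5 of 16 genes above the NC-mimic mean. The lower share of mitochondrially encoded counts went with these genes in 22Rv1 piR-4447944 replicate 3, and its part in the result was not tested.

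**Figure D3:**
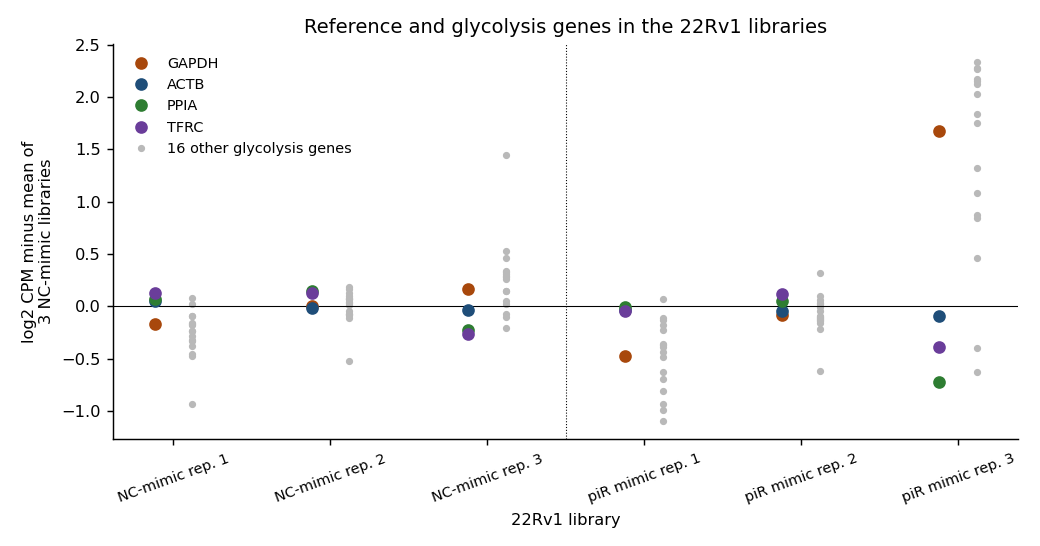
log2 CPM of GAPDH, ACTB, PPIA and TFRC (coloured points) and of 16 other glycolysis genes (grey points) in each 22Rv1 library, minus the mean of the 3 NC-mimic libraries. In piR-4447944 replicate 3 GAPDH lies at 1.68 among glycolysis genes that run from -0.63 to 2.34, while PPIA lies at -0.72 and ACTB at -0.09.

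Between the lines most of the 8 genes were higher in 22Rv1. With NC-mimic, 7 of 8 were called higher at an adjusted p under 0.05 (edgeR, Benjamini-Hochberg), while 58.4% of 17497 tested genes were called in either direction and 30.9% higher in 22Rv1. With pseudogene counts added to their genes, 6 were called higher and 1, GUSB, lower, as described below. In these bulk samples of cultured lines, a higher level in every cell and more cells with a high level cannot be told apart. Neither can the line be told apart from any batch it was grown in. HPRT1, the purine salvage enzyme, differed most, with a log2 fold change of 1.36 (SE 0.13, adjusted p = 7.5e-05) or 2.57-fold. GAPDH was 2.09-fold higher (log2 1.06, SE 0.10, adjusted p = 6.03e-05), and even its lowest 22Rv1 library of the 6, at 3079 CPM, was above the highest LNCaP library, at 2124 CPM. PPIA was 1.65-fold higher (log2 0.72, SE 0.11, adjusted p = 0.000739) and GUSB 1.37-fold higher (log2 0.45, SE 0.09, adjusted p = 0.00279). These 4 calls were also made without any 1 of the 6 libraries.

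TBP was 1.38-fold higher in 22Rv1 (log2 0.47, SE 0.17, adjusted p = 0.0409), YWHAZ 1.25-fold (log2 0.33, SE 0.11, adjusted p = 0.0354) and ACTB 1.15-fold (log2 0.20, SE 0.07, adjusted p = 0.0441). These were near the threshold, and all of them were lost, leaving 4 called members, in the fits with a replicate block, without a low-count filter, by limma on TPM, and without LNCaP NC-mimic replicate 1, 2 or 3 or 22Rv1 NC-mimic replicate 1. TFRC was the exception: its log2 fold change was -0.15 (SE 0.13, adjusted p = 0.338) and its groups overlapped. By CPM the lines did not overlap for 7 of 8 members with NC-mimic (67.2% of all tested genes) and for 7 of 8 with piR-4447944 (64.5%).

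With piR-4447944, 5 of 8 members were called higher in 22Rv1, where 52.4% of 17283 tested genes were called and 28.2% were higher. GUSB was again lower with its pseudogenes added, leaving 4 higher. The log2 fold changes were 1.73 for GAPDH (SE 0.54, adjusted p = 0.0329), 1.19 for HPRT1 (SE 0.14, adjusted p = 0.000669) and 0.58 for PPIA (SE 0.20, adjusted p = 0.0474). They were 0.49 for GUSB (SE 0.11, adjusted p = 0.00799) and 0.33 for YWHAZ (SE 0.09, adjusted p = 0.0178). TBP at 0.30, ACTB at 0.14 and TFRC at -0.17 did not pass. Without LNCaP piR-4447944 replicate 1, 2 or 3 the called members were HPRT1 and GUSB alone, and without 22Rv1 piR-4447944 replicate 3 there were 6, with GAPDH at 0.77 (adjusted p = 8.11e-06 by edgeR).

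GUSB needs a caution that the other members do not. The files list 17 GUSB pseudogene symbols, 12 of them with counts, and together they held 283% to 380% as many counts as GUSB itself in LNCaP and 65.8% to 88.9% in 22Rv1. GUSBP1 alone summed to 6662 counts over the LNCaP libraries and 954 over the 22Rv1 libraries, and GUSBP11 to 6050.5 and 4224. The direction depended on whether these copies were counted with GUSB. With the pseudogenes added, GUSB was lower in 22Rv1, by a log2 difference of -0.80 with NC-mimic (adjusted p = 0.000173) and -0.76 with piR-4447944 (adjusted p = 0.00115, both edgeR). Expected counts of GUSB itself were whole numbers in every library, so they showed no reads shared by fractions with other genes. Which count stands for GUSB between the lines was not tested. Pseudogenes of PPIA held 0.919% to 1.82% of its counts, those of GAPDH at most 0.144% and those of ACTB and YWHAZ at most 0.101%, while the listed pseudogenes of HPRT1 had no counts and TBP and TFRC had none listed.

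Levels of different genes were compared in TPM, which accounts for transcript length. In LNCaP with NC-mimic, PPIA (2725 ± 68.5 TPM, SD, n = 3) and GAPDH (2648 ± 114 TPM) led and overlapped. ACTB followed at 1308 ± 26.9 TPM, YWHAZ at 467 ± 32.8, TFRC at 146 ± 15.4, GUSB at 50.8 ± 6.43, HPRT1 at 34.0 ± 4.56 and TBP at 13.1 ± 1.32 TPM. In 22Rv1 with NC-mimic GAPDH led at 5302 ± 536 TPM, above PPIA at 4313 ± 583 TPM, and HPRT1 (83.8 ± 10.0 TPM) stood above GUSB (69.7 ± 3.49 TPM) with overlapping libraries. With piR-4447944 in 22Rv1, GAPDH ran from 3910 to 17624 TPM and overlapped PPIA at 3869 ± 1104 TPM. TBP was the lowest of the 8 in every group. The place of GUSB is that of its own counts, without its pseudogenes.

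The spread of a gene over libraries was measured as the SD of log2 CPM. Over all 12 libraries ACTB varied least, with an SD of 0.0970, ahead of YWHAZ at 0.197, TFRC at 0.20, TBP at 0.236 and GUSB at 0.260. PPIA, at 0.394, HPRT1, at 0.684, and GAPDH, at 0.823, varied more than the median gene with at least 10 CPM, whose SD was 0.353. Of 10969 such genes 84.7% had a smaller SD than GAPDH and 1.42% a smaller SD than ACTB. Without 22Rv1 piR-4447944 replicate 3 the SD of GAPDH was 0.512. ACTB had the lowest SD of the 8 in 17 of 18 settings of scaling, unit and left-out libraries, and TFRC had it when replicate 3 of all 4 groups was left out. GAPDH had the highest in 16, and HPRT1 in the other 2.

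Within LNCaP GAPDH was among the steadiest genes: its SD over 6 libraries was 0.040, beside 0.031 for ACTB and 0.034 for PPIA, and 2.94% of the genes with at least 10 CPM had a smaller one. HPRT1 had the widest at 0.157, and the median gene had 0.109. Within 22Rv1 the SD of GAPDH was 0.759, with 95.6% of genes below it, beside a median gene of 0.235. Without piR-4447944 replicate 3 it was 0.236, with 70.4% of genes below it and a median gene of 0.170 over the same 5 libraries. Over the 6 libraries ACTB stood at 0.045, GUSB at 0.082 and YWHAZ at 0.105. GAPDH thus went from 3rd of 8 in LNCaP to last in 22Rv1.

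The geNorm M value scores a standard by the mean SD of its log2 ratio to each of the other candidates, so a low M marks a gene that moves with the panel. Over 12 libraries GUSB (0.311), YWHAZ (0.314), TBP (0.322) and ACTB (0.342) were lowest and GAPDH (0.731) was highest. The last place of GAPDH rested on 22Rv1 piR-4447944 replicate 3. Over the 11 libraries without it GAPDH had 0.363, below TFRC at 0.419 and HPRT1 at 0.511. The lowest place was not firm either. With pseudogenes added YWHAZ was lowest, at 0.382. On log2(TPM + 1) TBP was, at 0.353, and without 22Rv1 NC-mimic replicate 2 YWHAZ was, at 0.303. In LNCaP all 8 lay between 0.089 and 0.136, and GAPDH had 0.102. In 22Rv1 GAPDH had 0.836, and 0.267 without piR-4447944 replicate 3. The pair with the steadiest ratio was GAPDH and ACTB in LNCaP (SD of the log2 ratio 0.0347) and TBP and YWHAZ in 22Rv1 (0.0833) and over all libraries (0.0910).

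Dividing by GAPDH, as RT-qPCR does, carried the spread of GAPDH into the other genes. The log2 ratio of ACTB to GAPDH was -1.36 ± 0.21 in 22Rv1 with NC-mimic and -1.79 ± 1.17 with piR-4447944 (SD, n = 3), and it was -3.12 in replicate 3 of the latter. In LNCaP the same ratio was -0.50 ± 0.03 and -0.52 ± 0.04. Over the 7 members the median difference of the ratio between mimics was -0.43 in 22Rv1, and 0.23 without piR-4447944 replicate 3. Exact two-sided permutation tests gave p between 0.8 and 0.9 for the 7 ratios in 22Rv1, with 0.9 after adjustment over the 7.

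Scaling the whole table by GAPDH instead of TMM also turned the comparison between the lines. With NC-mimic, 2179 genes were then called higher and 11359 lower in 22Rv1, against 5408 and 4818 with TMM, and the median over all tested genes shifted to -1.03. ACTB read -0.84, YWHAZ -0.73, GUSB -0.60, TBP -0.58 and PPIA -0.32 on the log2 scale, each the reverse of its TMM value. With the geometric mean of all 8 genes as the scale, 3148 genes were called higher and 8653 lower, and the median was -0.54. Changes between the lines under these scales are to be read against those medians.

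**Figure D4:**
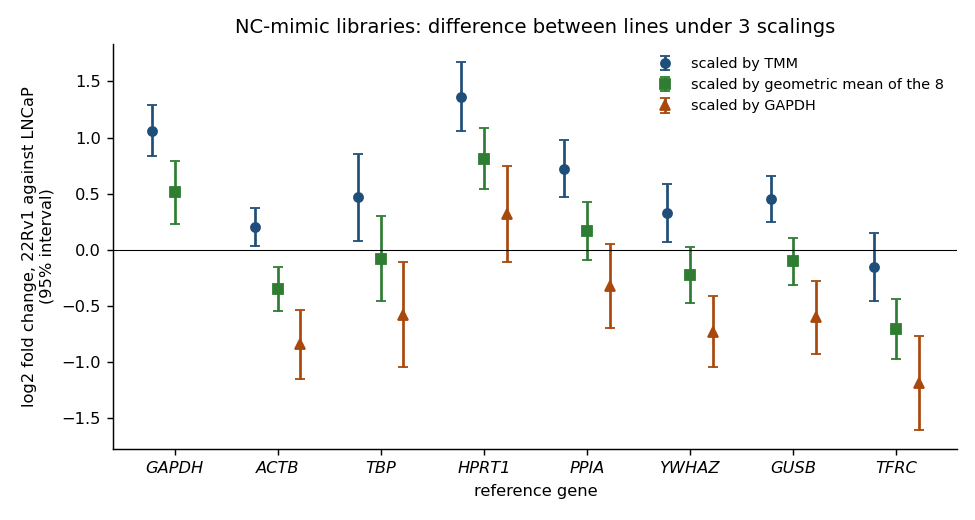
log2 fold change of each reference gene between 22Rv1 and LNCaP in the NC-mimic libraries, with its 95% interval, under 3 scalings. Scaled by TMM, ACTB lies at 0.20 and YWHAZ at 0.33, whereas scaled by GAPDH they lie at -0.84 and -0.73.

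The study took 6 genes from sequencing to RT-qPCR. In the 22Rv1 edgeR fits the choice of scale bore on their precision more than on their size. Plain differences between mimics in mean log2 CPM moved more, since dividing by GAPDH subtracts its own 0.38 (-0.27 without piR-4447944 replicate 3). Without and with division by GAPDH they were -0.42 and -0.79 for NEFH, -0.52 and -0.90 for PLCD1 and -0.99 and -1.37 for PLIN2. For U2AF1 they were -1.53 and -1.91, and for GJD3 -1.39 and -1.77. PLIN2, a lipid droplet coat protein, had a log2 fold change of -0.98 (SE 0.28, unadjusted p = 0.00943) with TMM and -1.09 (SE 0.73, unadjusted p = 0.138) with GAPDH as the scale, both by edgeR. U2AF1, a splicing factor with a near-identical copy in the annotation and hence an uncertain count, went from -1.44 (SE 0.30, unadjusted p = 0.00184) to -1.39 (SE 0.74, unadjusted p = 0.0600). GJD3, a gap junction protein, went from -1.32 (SE 0.42, unadjusted p = 0.0146) to -1.36 (SE 0.82, unadjusted p = 0.0973). In these fits all 3 passed the unadjusted threshold with TMM and missed it with GAPDH. Their log2 ratios to GAPDH still separated the groups, each mimic library lying under each control library. PLIN2 ratios were -9.81, -9.96 and -12.1 after the mimic, against -9.06, -9.27 and -9.43 in controls. The exact two-sided permutation p was 0.1 for each of the 3 ratios, the smallest possible. It was 0.4 for the ratios of NEFH and PLCD1.

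By edgeR TENT5B passed with either scale, at -1.51 (SE 0.48, unadjusted p = 0.0156) and -1.79 (SE 0.85, unadjusted p = 0.0352). NEFH, a neurofilament subunit, was at 32.6, 44.9 and 58.0 CPM with NC-mimic and at 30.9, 37.7 and 30.6 CPM with the mimic, and missed the threshold with both scales (-0.45, SE 0.23, unadjusted p = 0.089, and -0.53, SE 0.72, unadjusted p = 0.463). PLCD1, a phospholipase C, missed it as well, at -0.51 and -0.59. For NEFH the study used DESeq2 and listed it among genes lower with the mimic in both lines. It also reported lower NEFH by RT-qPCR and western blot, and higher NEFH after piR-4447944 knockdown in LNCaP-AI cells. Whether that RT-qPCR used the RNA of these libraries is not stated. The SD of the log2 ratio of NEFH to GAPDH was 0.25 in the NC-mimic group and 1.22 in the piR-4447944 group, in which replicate 3 set the spread. With the geometric mean of 8 genes the values were -0.94 for PLIN2 (unadjusted p = 0.0130), -1.39 for U2AF1 (unadjusted p = 0.00295), -1.27 for GJD3 (unadjusted p = 0.0188) and -1.48 for TENT5B (unadjusted p = 0.0167), which are near the TMM values. After adjustment over all tested genes 0 of the 6 passed under any of the 3 scales in 22Rv1 (adjusted p of at least 0.999 by edgeR). In LNCaP, NEFH and TENT5B were under the low-count filter. PLCD1 there was at -0.29 (SE 0.13, unadjusted p = 0.0511, edgeR) with TMM and passed with GAPDH as the scale, at -0.33 (SE 0.15, unadjusted p = 0.0422), with an adjusted p of 0.999 and 1.00 respectively. PLIN2, U2AF1 and GJD3 lay between -0.25 and -0.05 in LNCaP with both scales, and passed with neither.

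**Figure D5:**
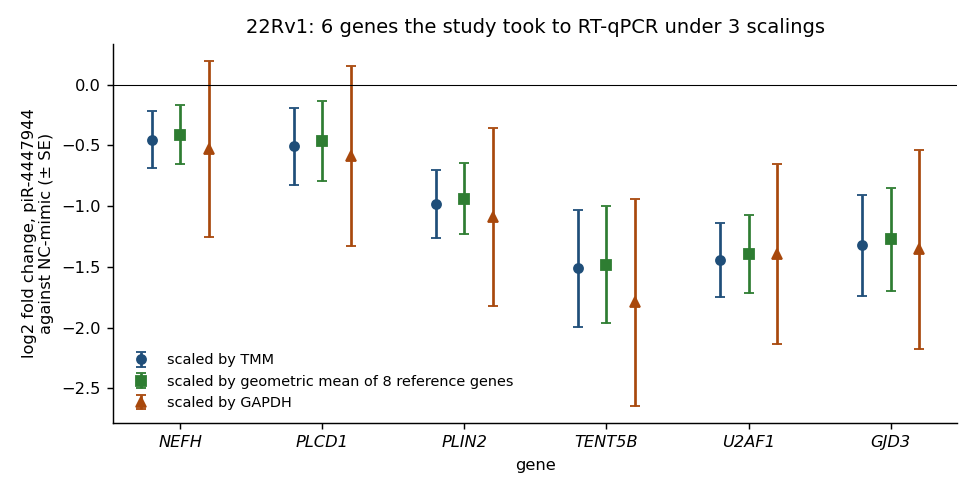
log2 fold change between piR-4447944 and NC-mimic in 22Rv1, with its SE, for the 6 genes the study took to RT-qPCR under 3 scalings. In these edgeR fits the points of most genes lie close together, and the SE of PLIN2 grows from 0.28 with TMM to 0.73 with GAPDH as the scale.

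Genes that work with each standard were counted from lists. Between the lines these counts are to be read against all tested genes, of which 30.9% were called higher and 27.5% lower in 22Rv1 with NC-mimic (median 0.01) and 28.2% and 24.2% with piR-4447944 (median 0.04). Beside ACTB, 1 of 14 actin cytoskeleton genes was called with the mimic in LNCaP, TMSB10, a thymosin that binds actin monomers (log2 fold change 0.24, SE 0.09, adjusted p = 0.999 by edgeR), and 0 of 14 in 22Rv1. Between the lines with NC-mimic 9 of 14 were higher in 22Rv1 and 0 lower, with TMSB10 at 4.05 and a median of 0.55. ACTB, at 0.20, was thus under the median of its own list.

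Of the 16 glycolysis genes 7 were called higher and 1 lower in 22Rv1 with NC-mimic, led by the enolase ENO2 at 2.12, and with piR-4447944 5 were higher and 1 lower, with ENO2 at 3.03. The list's medians were 0.39 and 0.99. The larger values with piR-4447944 rested on replicate 3 of 22Rv1. ENO2 measured 215, 282 and 1227 CPM in the 22Rv1 piR-4447944 libraries. Relative to the 22Rv1 NC-mimic mean, the list's median deviations in these libraries were -0.41, -0.10 and 1.80. Of 14 genes of purine salvage and synthesis, the setting of HPRT1, 4 were higher and 4 lower with NC-mimic and 1 higher and 3 lower with piR-4447944, and ATIC, which completes the purine ring, was lowest at -0.80 and -0.95. The medians of the purine list were 0.02 and -0.15. No purine gene was called with the mimic, and in 22Rv1 piR-4447944 replicate 3 their median deviation was -0.58 with 0 of 14 above the NC-mimic mean. HPRT1 was thus higher in 22Rv1 while its list was split.

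Of 14 factors that work with TBP in transcription initiation 0 were called with the mimic in either line, and between the lines 1 was higher and 4 lower with each mimic, with the TFIIA subunit gene GTF2A1 at -0.98 in both and list medians of -0.16 and -0.14. Of 12 other cyclophilins 0 were called with the mimic. With NC-mimic 4 were higher and 2 lower in 22Rv1, and with piR-4447944 3 and 2, led by PPIC at 2.22 and 2.10, and the medians were 0.13 and 0.19. Of the 6 other 14-3-3 genes 0 were called with the mimic, and 2 were higher and 3 lower in 22Rv1 with each mimic (medians -0.16 and -0.25). SFN, the epithelial sigma form, was higher by 8.0 and 7.39, so that YWHAZ at 0.33 was among the less divided members of its family.

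Of 13 lysosomal genes, the setting of GUSB, 0 were called with the mimic, 2 were higher and 5 lower in 22Rv1 with NC-mimic, and 0 were higher and 4 lower with piR-4447944, led by IDUA at -1.93 and -1.36 (medians -0.28 and -0.40). Of 12 genes of iron handling 11 were tested in the mimic comparisons and between the lines with NC-mimic, and all 12 with piR-4447944. FTH1, the ferritin heavy chain, was the 1 called with the mimic in LNCaP (0.21, SE 0.06, adjusted p = 0.999 by edgeR), and 0 were called in 22Rv1. Between the lines 4 were higher and 6 lower with NC-mimic and 5 and 5 with piR-4447944, led by TFR2, the second transferrin receptor, at 4.91 and 4.49 (medians -0.47 and -0.27). TFRC itself, at -0.15 and -0.17, overlapped between the lines. None of the lists had a called gene in the comparison of the mimic effect between lines.

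A list of 18 other genes in use as standards had 0 called with either mimic comparison. With NC-mimic 5 were higher and 5 lower in 22Rv1, and with piR-4447944 3 were higher and 7 lower, led by POLR2A at 0.82, with medians of -0.11 and -0.19. In 22Rv1 piR-4447944 replicate 3, PGK1, which is also a glycolysis gene, deviated by 2.27 and TUBB, a tubulin, by -1.06.

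After removal of each line's mean, the genes whose log2 CPM followed GAPDH most closely over the 12 libraries, among 10969 genes with at least 10 CPM, were PKM (Pearson r = 0.998), ENO1 (0.997) and SRRM4 (0.993). Without 22Rv1 piR-4447944 replicate 3 these were 0.976, 0.974 and 0.907. PPIA was followed by DLAT (0.994), PLK1 (0.990) and RBBP7 (0.989). The closest gene was ANXA5 for ACTB (0.919), PPP1R2 for TBP (0.863), PARP2 for HPRT1 (0.945), HECTD2 for YWHAZ (0.952), DHRS7 for GUSB (0.901) and DONSON for TFRC (0.964). The libraries share scaling factors and the same deviating library, so these are descriptions.

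Among 5197 genes with at least 50 CPM, 134 had a smaller SD over the 12 libraries than ACTB and 4669 a smaller SD than GAPDH. The 5 steadiest were ADD1, a membrane skeleton protein (SD 0.0526, 179 to 208 CPM), GANAB, CHD1, SCAF8 and CXXC1 (SD 0.0648).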

How the data were processed

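LNCaP and 22Rv1 cells given NC-mimic or piR-4447944 mimic were sequenced in 12 libraries. Per the labels, the authors aligned reads to hg38 with STAR 2.7.1a, quantified genes with RSEM 1.3.0 and tested them with DESeq2 1.34.0 in R 4.1.1. Trimming and strand setting are not given in the sources used here. The authors deposited expected counts and TPM per gene and library. Expected counts divide reads between copies by estimate, and TPM divides by an effective length estimated in each library. Read totals, and so precision, differ by less than 2-fold (12161091 to 22179601 expected counts).

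Expected counts were rounded, filtered with filterByExpr, scaled by TMM and tested for all genes with edgeR 4.0.16 (quasi-likelihood, R 4.3.3), each comparison in its own 6 libraries and the difference between lines in all 12. In the mimic comparisons an unadjusted p under 0.05 with an absolute log2 fold change over 0.2 was called, and between lines an adjusted p under 0.05 (Benjamini-Hochberg). CPM are TMM-scaled, and log2 CPM used a prior count of 2. Ratios to GAPDH were tested by exact permutation, which cannot go below 0.1. Alternatives used DESeq2 1.42.0, limma 3.58.1 on log2(TPM + 1), other scalings, filters and left-out libraries. The fits were checked on simulated data. Python 3.11.15, pandas 2.3.3, scipy 1.17.1 and matplotlib 3.10.9 made the descriptions and plots.

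The genes named were the 8 members, for each the 3 most correlated genes of at least 10 CPM, the 5 steadiest of at least 50 CPM, the 6 genes taken to RT-qPCR, and from each list the called gene with the largest change. The gene this rule gave for 1 list is not reported here. Other glycolysis genes, sums of markers and single pseudogenes were added after their values were seen. Members and lists were chosen with earlier results of these data known. The replicate numbers of the mimic groups in 22Rv1 deviated together (correlations of 0.198, 0.167 and 0.355), which is a pairing read from the values and not from the labels. In LNCaP (0.0211, 0.00504 and 0.189) and between the lines at least 1 correlation was under 0.1. Blocked fits called 0 members in the mimic comparisons and are given where they changed a count. Promoter letters were read from hg38 with GENCODE v44.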

Additional observations from a re-analysis of the deposited data

Results flagged for a closer look

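ACTB was singled out because all 3 LNCaP piR-4447944 libraries were above the mean of their NC-mimic libraries (by 0.07, 0.00 and 0.00 on the log2 scale), while all 3 in 22Rv1 were below theirs (by -0.04, -0.05 and -0.09). The difference between the lines in the mimic effect was -0.082 on the log2 scale (edgeR over 12 libraries, unadjusted p = 0.433, adjusted p = 1).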

How the results depend on the processing

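No member was called with the mimic in either line, or between the lines' mimic effects, under any alternative. GAPDH as the scale holds GAPDH itself level, and the geometric mean centres the members, so these scalings could not test them freely. Of 755 alternative values of the members' log2 fold changes 682 stayed on their side of the threshold (53 of them with the other sign and no call in either), 5 gained a call, 47 lost one and 21 reversed. The number of all genes called varied far more. In LNCaP it was 361, and 891 without the low-count filter, 929 without both replicate 3 libraries, 578 with limma, 168 with all 12 libraries in one fit, 2 with DESeq2, 0 at an adjusted p under 0.05, and 284 to 1008 with single libraries left out. In 22Rv1 it was 250, and 532, 781, 459 and 1232 under the first 4 of these, 107 with GAPDH as the scale, 0 at an adjusted p under 0.05, and 183 to 376 with single libraries left out. With the replicate block, for which the numbers pair the 22Rv1 libraries by their values, 420 genes were called and 0 members. For the difference between lines it was 610, and 1035 without the filter, 1333 without replicate 3, 338 with at least 10 counts in every library, 329 with GAPDH as the scale, 0 at an adjusted p under 0.05, and 407 to 1041 with single libraries left out.

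The log2 fold change of GAPDH in 22Rv1 was -0.17 without both replicate 3 libraries and -0.26 to 1.02 with single libraries left out, the lowest without piR-4447944 replicate 3. In the difference between lines it was -0.22 and -0.30 to 1.01. Its SD over libraries was 0.478 without all 4 replicate 3 libraries and 0.512 to 0.863 with single libraries left out. The median ratio to GAPDH in 22Rv1 was 0.10 without replicate 3 and -0.87 to 0.23 with single libraries left out, alternatives chosen after seeing the data. Between lines with NC-mimic 4 members were called with the geometric mean as scale, without the filter, with the replicate block and with limma, and 4 to 7 with single libraries left out. With piR-4447944 the counts were 0 with GAPDH as the scale, 3 with the geometric mean, 3 with the replicate block, 2 with limma and 2 to 6 with single libraries left out. Reversed with NC-mimic were ACTB -0.84, TBP -0.58, PPIA -0.32, YWHAZ -0.73 and GUSB -0.60 by GAPDH, and ACTB -0.35, TBP -0.080, YWHAZ -0.22 and GUSB -0.10 by the geometric mean. With piR-4447944 they were PPIA -0.44, YWHAZ -0.83 and GUSB -0.71 by GAPDH, and ACTB -0.39, YWHAZ -0.19 and GUSB -0.035 by the geometric mean. GUSB with its pseudogenes gave -0.80 and -0.76. By construction these 2 scalings shift all genes together. Other causes were not tested.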
